A study of Mus musculus with 43 samples.

Results

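*Sdha*, *Sdhb*, *Sdhc* and *Sdhd* encode the 4 subunits of succinate dehydrogenase (SDH), which is complex II of the respiratory chain. They were taken by symbol from an in vivo CRISPR knock-out screen of metabolic genes in CD8+ T cells, in which they account for 4 of 2078 targeted genes and 20 of 10640 single guide RNAs (sgRNAs), 5 per gene. All 20 sgRNAs had a value in every library and entered the values below, for which no filter on low values was applied. A filter on low T0 values, tried as an alternative, would have left out 2 of them. The genes were chosen with their changes against the starting cells, and their differences between treatments, already known. Both kinds of value are therefore given as a description of these libraries. Where calls on them are counted, this is only beside the share of all genes called, and they are no test of the 4 genes.

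The screen used OT-I:Rosa26-Cas9 T cells, whose receptor recognizes a peptide of chicken ovalbumin, transduced with a lentiviral sgRNA library that carries CD90.1 as a reporter. Cells positive for CD90.1 were transferred into Rosa26-Cas9 mice aged 6 to 12 weeks, 5 days after KPC_OVA cells, a mouse pancreatic cancer line made to express ovalbumin, had been injected into the pancreas. Mice received anti-PD-1 or a rat IgG control at 10 mg/kg from the day of transfer, and CD90.1+ OT-I cells were sorted 7 days later from the primary tumour, lung, liver, peritoneal metastases, spleen, draining and nondraining lymph nodes. Cells of the day of transfer, activated in culture but exposed to neither a tumour nor the anti-PD-1 or IgG treatment, are called T0. They gave 3 libraries.

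Each of the 14 in vivo groups, 7 organs under 2 treatments, had 3 libraries, except liver IgG (2), liver anti-PD-1 (1) and peritoneal metastases IgG (2). The authors excluded 2 of 43 samples after quality control, which leaves 41 libraries. Every cell of the screen, T0 included, carried Cas9 and the OT-I receptor, and 1 tumour line was used. Cells could take up more than 1 sgRNA. The number of mice behind a library is not given in the sources used here, and organs with the same treatment may come from the same mice, so organs are not independent of each other. One library titled peritoneal metastases anti-PD-1 (replicate 2) carries spleen as its tissue label. It was used under its title, and the peritoneal values are given with and without it.

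SDH sits in the inner mitochondrial membrane and belongs both to the tricarboxylic acid (TCA) cycle and to the respiratory chain. It oxidizes succinate to fumarate and hands the electrons to ubiquinone, from which complex III takes them. SDHA holds the FAD cofactor and the succinate site, SDHB carries the iron-sulfur clusters along which the electrons pass, and SDHC and SDHD anchor the enzyme in the membrane and form the ubiquinone site with SDHB. CD8+ T cells raise mitochondrial respiration when they are activated and divide.

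The value of an sgRNA is a signal, that is, its read count after normalization to 250 nontargeting sgRNAs and a batch correction by the authors. It measures how common the cells with this sgRNA were among the sorted cells. Survival, division and arrival in an organ cannot be told apart in such a value, and loss of cells before T0 was not measured. A gene value below is the mean of log2(signal + 1) over its 5 sgRNAs, minus the same mean over the nontargeting sgRNAs of that library, so that 0 is the level of the nontargeting sgRNAs. A change is the difference of 2 such values on the log2 scale.

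Within a replicate number, many sgRNAs shared an identical lowest value across libraries, which was read as not detected. The share of all sgRNAs at this value was at most 0.0188% in T0. In the 20 libraries from primary tumour, spleen, liver and peritoneal metastases it ran from 2.78% to 24.1%. Lung had 10.5% to 42.6% (6 libraries), and lymph nodes had 45.4% to 91.6% (12 libraries). Lymph nodes were therefore kept apart from the other organs. How many reads stand behind a value is unknown, so no counting interval is given.

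At T0, the SDH genes lay at the level of the nontargeting sgRNAs or somewhat above it. *Sdha* had a level of 0.06, 0.38 and 0.68 in T0 replicates 1, 2 and 3 (mean 0.37 ± 0.31, SD, n = 3). *Sdhb* had 0.01, 0.59 and 0.29 (0.29 ± 0.29), and *Sdhc* had 0.55, 0.42 and 0.76 (0.57 ± 0.17). *Sdhd* had -0.31, -0.12 and 0.57 (0.05 ± 0.46). The mean placed *Sdhc* at the 86.2th percentile of all genes and *Sdhd* at the 30.0th, and the T0 ranges of all 4 genes overlapped.

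At 7 days after transfer, all 4 genes were strongly reduced outside the lymph nodes. Averaged over the 10 groups of the 5 organs, the change against T0 was -4.76 for *Sdha* (SE 0.58), -3.85 for *Sdhc* (SE 0.50), -3.78 for *Sdhb* (SE 0.58) and -3.20 for *Sdhd* (SE 0.52), whereas the median of all genes was -0.14. From the lowest of 2078 genes, *Sdha* took place 77, *Sdhc* 162, *Sdhb* 170 and *Sdhd* 209. For each of the 4 genes, all 26 libraries outside the lymph nodes lay below all 3 T0 libraries, which held for 14% of all genes. Since these changes belong to the choice of the genes, nothing is read from that comparison.

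The reduction was seen with every sgRNA. The mean change outside the lymph nodes ranged from -6.52 for s_05326 (*Sdha*) to -2.27 for s_05542 (*Sdhb*), with a median of -3.81 over the 20 sgRNAs. Nontargeting sgRNAs had a median of 0.08 and a range of -1.85 to 1.66, and 0 of 250 lay below any of the 20. From the lowest of 10640 sgRNAs, the 20 took places from 78 (s_05326) to 1377 (s_05542). Of the 20 sgRNAs, 13 lay below all T0 libraries in 26 of 26 libraries, and the fewest such libraries were 21, for s_05321 (*Sdhd*). The median was 16 of 26 libraries over all gene-directed sgRNAs and 15 over nontargeting sgRNAs. The share of all sgRNAs below T0 in every library was not counted, and nothing is read from the count of 13. The 5 sgRNAs of a gene share their target and are not replicates of a condition.

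The sgRNAs of a gene differed in strength. For *Sdha*, the catalytic subunit, s_05326 had signals of 330.1, 340.5 and 437 at T0 and a median of 0.27 in the 26 libraries, the highest being 36.5. The other *Sdha* sgRNAs changed by -5.79 (s_05330), -4.41 (s_05327), -3.83 (s_05329) and -3.26 (s_05328). The last of them reached 408 in the spleen anti-PD-1 library 3, above its T0 values of 309, 394 and 211, while all others of this gene stayed below T0 outside the lymph nodes.

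For *Sdhb*, the iron-sulfur subunit, 3 sgRNAs changed by -5.43 (s_05541), -4.78 (s_05543) and -3.80 (s_05544), and 2 by -2.64 (s_05545) and -2.27 (s_05542). The latter 2 were the most abundant *Sdhb* sgRNAs at T0, with mean signals of 835 and 643, against 174 to 211 for the others. They kept median signals of 142 and 97.7 outside the lymph nodes, whereas the medians of the others were below 1 signal unit. For *Sdhc*, the sgRNA changes ran from -5.20 (s_05017) to -2.90 (s_05020). For *Sdhd*, s_05323 stood apart with -5.12, and the other 4 lay between -3.03 (s_05325) and -2.49 (s_05324).

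An sgRNA at the shared lowest value was not seen among the sorted cells. Outside the lymph nodes this was so for 39.0% of all values of the 20 sgRNAs, namely for 47.7% of the values of *Sdha*, 45.4% of *Sdhb*, 32.3% of *Sdhd* and 30.8% of *Sdhc*. The share was 7.09% for nontargeting sgRNAs and 11.5% for all gene-directed sgRNAs.

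**Figure D1:**
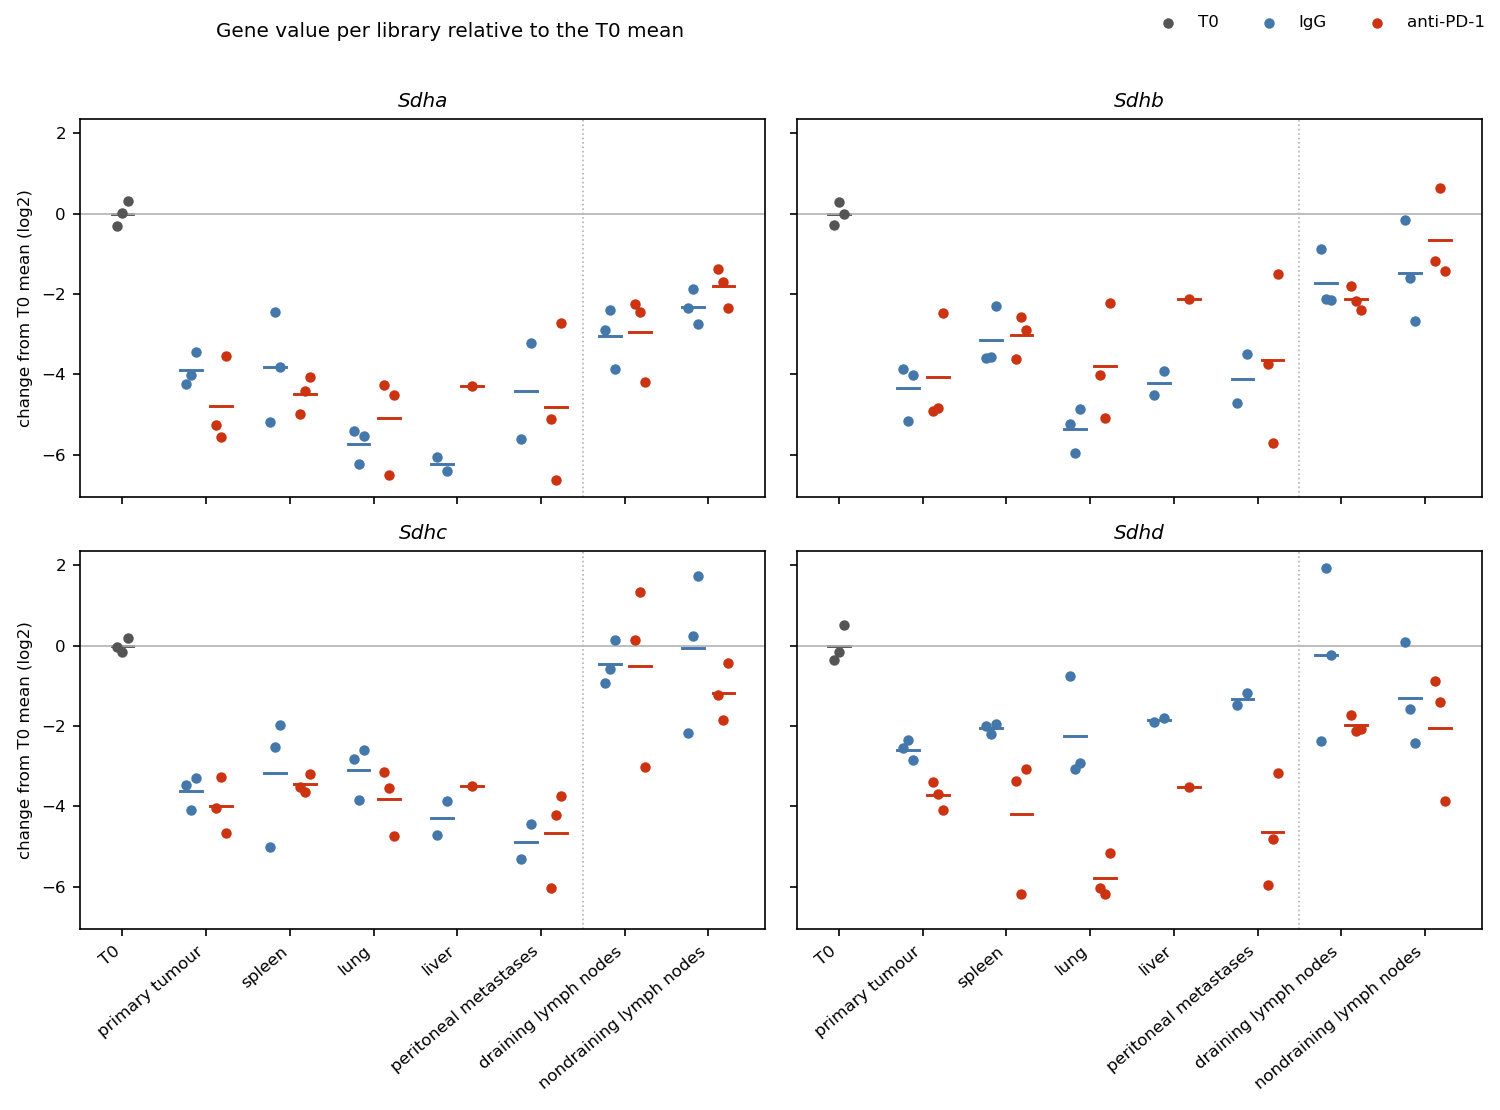
Change of the gene value from the T0 mean (vertical axis, log2) for *Sdha*, *Sdhb*, *Sdhc* and *Sdhd* in each library, by organ; points are libraries, short lines are group means, and the dotted line sets off the lymph nodes. All points left of the dotted line lie below the T0 points, and for *Sdhd* the anti-PD-1 points lie below the IgG points in these 5 organs.

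*Sdha* was low in every organ. In the primary tumour, its change against the T0 mean was -4.23, -4.01 and -3.44 in the IgG libraries and -5.27, -5.56 and -3.54 under anti-PD-1. In the lung, it was -5.42, -6.23 and -5.53 under IgG and -4.26, -6.51 and -4.51 under anti-PD-1. The spread between replicates was widest in the peritoneal metastases, with -5.62 and -3.23 under IgG and -5.12, -6.63 and -2.73 under anti-PD-1. Without the library that carries the spleen label, the mean of that last group was -3.93 in place of -4.83.

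The order of the 10 group means of *Sdha* ran from liver IgG (-6.24) and lung IgG (-5.73) to primary tumour IgG (-3.89) and spleen IgG (-3.82). Of 9 neighbouring pairs in that order, 8 overlapped in their library values. The exception was liver anti-PD-1 beside primary tumour IgG, where liver anti-PD-1 is 1 library. IgG and anti-PD-1 libraries of *Sdha* overlapped in each organ except the liver.

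*Sdhb* was lowest in the lung under IgG, with changes of -5.23, -5.96 and -4.86. The lung anti-PD-1 libraries lay at -4.02, -5.10 and -2.24 and overlapped with them. In the spleen, the values were -3.59, -3.58 and -2.31 under IgG and -3.62, -2.56 and -2.90 under anti-PD-1, and in the single liver anti-PD-1 library the value was -2.12. Of 9 neighbouring groups in the order of means, 8 pairs overlapped. In the peritoneal metastases under anti-PD-1, *Sdhb* had -3.74, -5.70 and -1.49, and the group mean of -3.65 became -2.62 without the library labelled spleen.

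*Sdhc* varied least across groups, with means from -4.88 in the peritoneal metastases under IgG to -3.09 in the lung under IgG. All 9 neighbouring pairs overlapped. The libraries of the peritoneal metastases had changes of -5.32 and -4.44 under IgG and -6.04, -4.22 and -3.74 under anti-PD-1. In the spleen under IgG, 1 library lay at -5.02 and the others at -2.52 and -1.98, so that the libraries of this single group spread more widely than the 10 group means.

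*Sdhd* differed from the other 3 in its order of groups: the 5 anti-PD-1 groups were the 5 lowest and the 5 IgG groups the 5 highest. The means ran from -5.80 in the lung under anti-PD-1 to -1.33 in the peritoneal metastases under IgG. Of 9 neighbouring pairs, 6 overlapped. The share of all genes with such an order of groups was not counted. Since the treatment differences belong to the choice of the genes, nothing is read from this order.

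Limma called *Sdha* and *Sdhc* lower than T0 in 10 of 10 groups, *Sdhb* in 9 and *Sdhd* in 8, at an adjusted p of at most 0.05 over all genes. *Sdhb* was not called in the liver under anti-PD-1 (change -2.12), nor *Sdhd* in the liver (-1.85) and peritoneal metastases (-1.33) under IgG. The share of all genes called lower was 14.3% and 14.4% in the primary tumour under IgG and anti-PD-1, and 13.6% and 14% in the spleen. It was 16.2% and 17.2% in the lung, 13.1% and 9.58% in the liver, and 13.7% and 15.3% in the peritoneal metastases. In all 10 groups at once, 8.37% of genes were called lower. All groups were compared with the same 3 T0 libraries, so these calls are not independent of each other. Nothing is read from the calls of the 4 genes, which were chosen on these changes.

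The lymph nodes gave little information at the level of single genes. Limma called 0 of 2078 genes lower in any of the 4 lymph node groups, with 83 to 178 genes per group lower at an unadjusted p under 0.05. For the SDH sgRNAs, 207 of 240 lymph node values (86.3%) were at the shared lowest value, against 72.1% for nontargeting sgRNAs. *Sdha* was detected once in 60 values, by s_05330 with a signal of 639 in the nondraining lymph nodes under anti-PD-1 (replicate 3).

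The mean change over the 4 lymph node groups was -2.54 for *Sdha* (SE 0.71), against a median of -0.13 over all genes. With 59 of 60 values at the shared lowest value, it is the distance from the T0 level to that value in nearly all libraries, so no place among genes is given. It was -1.50 for *Sdhb*, -1.39 for *Sdhd* and -0.55 for *Sdhc*. All 12 lymph node libraries lay below T0 for *Sdha*, 10 for *Sdhb*, 9 for *Sdhd* and 7 for *Sdhc*. The share of all genes for which this held was not counted. Since 72.1% of nontargeting values were also at the shared lowest value, nothing is read from these counts. Single sgRNAs set the higher values, such as s_05018 (*Sdhc*) with a signal of 4828 in the draining lymph nodes under anti-PD-1 (replicate 1), where its T0 signals were 599 to 748.

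The direction of the lymph node means of *Sdhb*, *Sdhc* and *Sdhd* depended on the centring. With the nontargeting median in place of the mean, they were 0.48, 1.42 and 0.58, and *Sdha* was -0.56.

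Organs were compared with each other outside the lymph nodes, each as the mean of its 2 treatment groups. T0 cancels from this comparison, but it is made of the same group values that were known when the genes were chosen, and is not independent of that choice. The authors describe a correction of the table for batch effects between organs. What was entered as a batch is not given, and how the correction changed the values compared here was not tested. The moderated F-test of limma over the 5 organs called none of the 4 genes, with adjusted p-values of 0.80 (*Sdha*), 0.66 (*Sdhb*), 0.64 (*Sdhc*) and 0.81 (*Sdhd*). It called 9 of 2078 genes (0.433%), with 162 at an unadjusted p under 0.05. *Sdha*, *Sdhb* and *Sdhd* had their lowest organ mean in the lung, at -5.41, -4.57 and -4.02 against T0, and *Sdhc* in the peritoneal metastases, at -4.77. 

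Against the spleen, no gene of the 4 was called in any organ by limma. The share of all genes called lower than in the spleen was 0.241% in the primary tumour, 0.0962% in the lung, 0% in the liver and 0.144% in the peritoneal metastases, and at most 0.144% were called higher in any organ, with 0.0481% in the primary tumour. The difference of the lung from the spleen was -1.25 for *Sdha* (95% interval -2.37 to -0.13), -1.47 for *Sdhb* (-2.59 to -0.35) and -0.14 for *Sdhc* (-1.09 to 0.81). The peritoneal metastases differed from the spleen by -1.46 for *Sdhc* (-2.47 to -0.45) and by 0.14 for *Sdhd* (-0.91 to 1.19). The primary tumour differed by -1.12 for *Sdhb* (-2.24 to -2.4e-05) and by -0.03 for *Sdhd* (-1.02 to 0.96). These intervals are not adjusted for the number of genes or organs. A missing call therefore does not show equal abundance, and each interval above reaches beyond 1 log2 unit in at least 1 direction. Values as deposited, without centring, gave an F-test call for 3 of the 4 genes and for 300 genes in all.

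**Figure D2:**
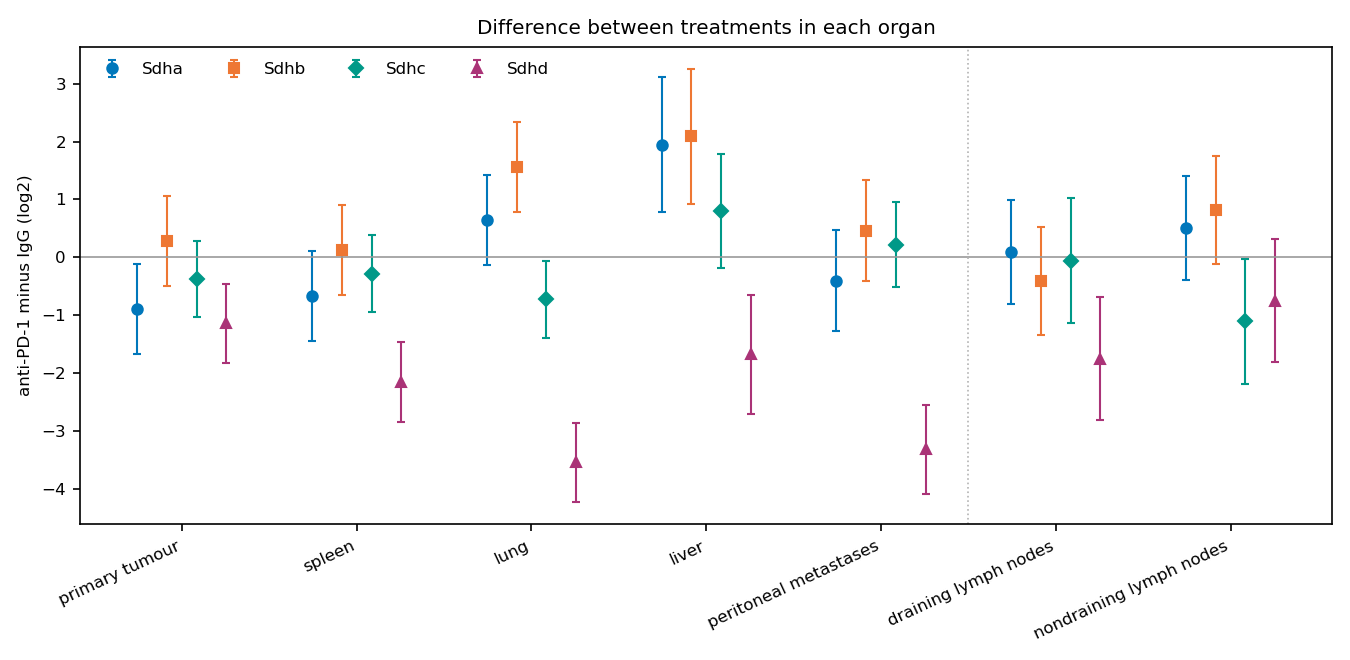
Difference between anti-PD-1 and IgG (vertical axis, log2) in each of 7 organs for *Sdha*, *Sdhb*, *Sdhc* and *Sdhd*; points are differences of group means, bars are the standard error of the limma fit, and the dotted line sets off the lymph nodes. *Sdhd* lies below 0 in all 7 organs, whereas the other genes lie on both sides of 0.

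*Sdhd* was lower under anti-PD-1 than under IgG in each organ. In the primary tumour, its changes against T0 were -2.55, -2.36 and -2.86 under IgG and -3.40, -3.70 and -4.10 under anti-PD-1. In the spleen, they were -2.01, -2.19 and -1.95 under IgG and -3.36, -6.18 and -3.08 under anti-PD-1. The 2 treatments did not overlap in either organ.

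The gap in *Sdhd* was widest in the lung and the peritoneal metastases. In the lung, the changes were -0.77, -3.07 and -2.91 under IgG and -6.04, -6.19 and -5.16 under anti-PD-1. In the peritoneal metastases, they were -1.49 and -1.17 under IgG and -5.97, -4.82 and -3.16 under anti-PD-1, and in the liver -1.90 and -1.80 against -3.53 in the single anti-PD-1 library. No anti-PD-1 library of these 5 organs reached an IgG library of the same organ. The share of all genes for which this held in all 5 organs at once was not counted, and nothing is read from it.

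The difference between anti-PD-1 and IgG for *Sdhd* was -3.55 in the lung (SE 0.69), -3.32 in the peritoneal metastases (SE 0.77), -2.15 in the spleen (SE 0.69), -1.68 in the liver (SE 1.03) and -1.14 in the primary tumour (SE 0.69). It had the lowest place of all genes in the peritoneal metastases and the 2nd lowest in the lung. The mean over the 5 organs was -2.37 (SE 0.35), the 2nd lowest of 2078 genes, against a median of 0.04. These differences were known when the genes were chosen, so nothing is read from their places among all genes. Without the peritoneal library labelled spleen, the peritoneal difference was -3.23 and the mean -2.35. The spleen difference rested in part on 1 library and was -1.16 without spleen anti-PD-1 replicate 2.

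Anti-PD-1 libraries lay below all IgG libraries of the same organ for 5.34% of genes in the primary tumour, 6.16% in the spleen, 7.51% in the lung, 23.3% in the liver and 9.91% in the peritoneal metastases. A difference below 0 in all 7 organs was found for 2.21% of genes. Limma called *Sdhd* lower in the lung, where 2.36% of genes were called lower, and over the mean of 5 organs, where 0.481% of genes were called lower and 0.866% higher. Nothing is read from these counts, since the treatment difference belongs to the choice of the genes. In the primary tumour, spleen, liver and peritoneal metastases limma called 0 genes in either direction. At an unadjusted p under 0.05, 12, 91, 19 and 42 genes were lower there and 2, 70, 74 and 65 higher.

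Of single sgRNAs, limma called 10 of the 20 lower than T0 over the mean of the 10 groups, beside 7.52% of all sgRNAs, and 1 (s_05321) lower under anti-PD-1, beside 0.63%; nothing is read from these counts either. All 5 *Sdhd* sgRNAs had a mean difference below 0 over the 5 organs, as had 22 of their 25 differences in single organs. These sgRNAs make up the gene value whose difference was known at the choice, so nothing is read from their agreement. The mean differences were -3.84 for s_05321 (SE 0.84), -2.63 for s_05324, -2.40 for s_05325, -1.98 for s_05322 and -0.98 for s_05323 (SE 0.60). The last is the sgRNA that was already nearly absent under IgG, where it was at or below 14.7 in all libraries but 1. In the lung, s_05324 had signals of 517, 222 and 0.51 under IgG and of 0.88, 0.49 and 48.4 under anti-PD-1. In the same organ, s_05325 had 79.3, 0.74 and 48.2 under IgG and 0.66, 0.74 and 0 under anti-PD-1.

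The share of *Sdhd* values at the shared lowest value was 16.9% under IgG (11 of 65) and 47.7% under anti-PD-1 (31 of 65). Over all sgRNAs, the mean share per library was 11.6% under IgG and 11.2% under anti-PD-1, and over nontargeting sgRNAs 7.63% and 6.55%. The organs differed. In the lung, the highest share over all sgRNAs was 42.6% under IgG and 30.2% under anti-PD-1. In the peritoneal metastases, it was 8.83% under IgG and 19.3% under anti-PD-1. In the spleen, it was 12.8% under IgG and 24.1% under anti-PD-1, in a library with all 5 *Sdhd* sgRNAs at the lowest value. The libraries of both treatments overlapped in each of these organs. Whether the *Sdhd* shares follow these differences was not tested. In the anti-PD-1 groups, the mean change of *Sdhd* against T0 was -4.38, between those of *Sdha* (-4.70) and *Sdhc* (-3.88). In the IgG groups, it was -2.01, above those of *Sdha* (-4.82), *Sdhb* (-4.24) and *Sdhc* (-3.81).

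The other subunits had smaller differences. Over the 5 organs, anti-PD-1 minus IgG was 0.12 for *Sdha* (SE 0.40), 0.91 for *Sdhb* (SE 0.40) and -0.07 for *Sdhc* (SE 0.34). *Sdhb* differed in the other direction from *Sdhd*, with all 5 sgRNA means between 0.17 and 2.08, yet its anti-PD-1 and IgG libraries overlapped in each organ except the liver, where the single anti-PD-1 library lay above both IgG libraries, as for 46.2% of genes. Whether the subunits differ from each other in their treatment difference was not tested, since the genes were chosen on it.

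In the lymph nodes, anti-PD-1 minus IgG of *Sdhd* was -1.75 in the draining (SE 1.07) and -0.75 in the nondraining nodes (SE 1.07), and the libraries of both treatments overlapped. Few values were detected here: 24 of 30 *Sdhd* values under IgG and 29 of 30 under anti-PD-1 were at the shared lowest value.

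**Figure D3:**
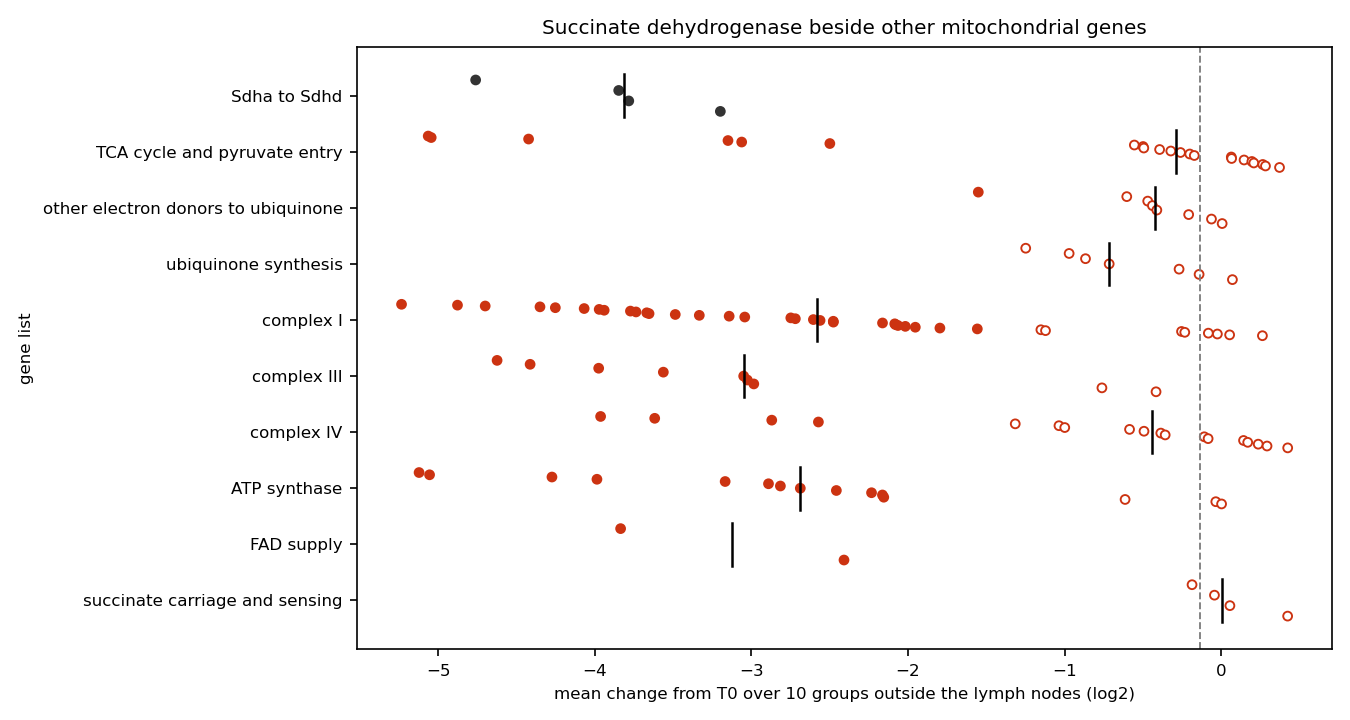
Mean change from T0 over the 10 groups outside the lymph nodes (horizontal axis, log2) for the 4 SDH genes and for the genes of 9 lists of related function; each point is a gene, filled where limma called it, short vertical lines are list medians, and the dashed line is the median of all genes at -0.14. SDH, complexes I and III and ATP synthase lie far to the left, whereas most genes of the TCA cycle lie near the dashed line.

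Genes around SDH were read in lists chosen by function, with calls of limma on the mean over the 10 groups; of all genes, 16.1% were called lower and 0.192% higher. In the list of the TCA cycle and pyruvate entry, 6 of 22 measured genes fell and 0 rose (median -0.29). *Ogdh* (-5.06, SE 0.44), *Dlst* (-5.05, SE 0.53) and *Dld* (-4.42, SE 0.55), the components of the 2-oxoglutarate dehydrogenase complex, fell most, with adjusted p-values of limma of 2.29e-11, 1.49e-09 and 4.23e-08. *Fh1*, fumarase, which takes up the fumarate made by SDH, fell as well (-3.06, SE 0.56). *Idh3a*, a subunit of the NAD-dependent isocitrate dehydrogenase, had a change of -2.50 and was called lower.

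*Sucla2*, *Suclg1* and *Suclg2*, the subunits of succinyl-CoA ligase, had changes of -0.26 (SE 0.40), -0.50 (SE 0.52) and 0.20 (SE 0.54), and none was called. The highest values of the list were those of *Cs*, citrate synthase, at 0.37, and *Idh3g* at 0.28. Assembly factors of SDH, *Sdhaf1* to *Sdhaf4*, are not among the targeted genes. Of the list of succinate carriers and the succinate receptor, 4 of 5 genes were targeted and 0 of 4 called, with *Slc13a2* at -0.19, *Slc25a10*, the mitochondrial dicarboxylate carrier, at -0.04, *Slc13a3* at 0.06 and *Slc13a5* at 0.42.

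The FAD cofactor of SDHA is made by riboflavin kinase and FAD synthetase. Both genes fell, with changes of -3.84 for *Rfk* (SE 0.61) and -2.41 for *Flad1* (SE 0.56). FAD serves many other enzymes, among them *Dld*.

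The lists of the respiratory chain were taken by gene symbol, with isoforms such as *Cox4i1* and *Cox4i2* counted as separate genes. Whether each gene belongs to the complex of its list was not checked. Of 38 genes with complex I symbols, 30 fell (median -2.58), led by *Ndufa1* (-5.23), *Ndufa2* (-4.88) and *Ndufv1* (-4.70). *Ndufs4* (0.05) and *Ndufa4l2* (0.26) had the highest values. Of complex III, which takes the electrons of SDH from ubiquinol, 7 of 9 genes fell (median -3.05), with *Uqcrc1* at -4.62, *Uqcr10* at -4.41 and *Uqcrb* at -3.98, and *Uqcrh* (-0.76) and *Uqcr11* (-0.42) highest. Of complex IV, 4 of 18 fell (median -0.44), with *Cox7b* at -3.96, *Cox6c* at -3.62 and *Cox5a* at -2.87; *Cox8c* (0.29) and *Cox7b2* (0.42) were highest. Of ATP synthase, 12 of 15 fell (median -2.69), with *Atp5a1* at -5.12, *Atp5b* at -5.06 and *Atp5c1* at -4.27, and *Atp5g3* (-0.03) and *Atp5g2* (0.00) highest. No gene of these lists rose.

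Few of the other enzymes that feed electrons to ubiquinone were called. Of 8 such genes, 1 fell (median -0.43): *Dhodh*, dihydroorotate dehydrogenase of pyrimidine synthesis, at -1.55 (SE 0.48). *Etfa* and *Etfb*, which carry electrons from fatty acid oxidation, had changes of -0.60 and -0.47, and *Prodh* (-0.06) and *Sqrdl* (0.01) the highest. Of 7 genes of ubiquinone synthesis, 0 were called by limma (median -0.72); *Coq5* was at -1.25, *Coq6* at -0.97, *Coq3* at -0.87, *Pdss1* at -0.14 and *Coq2* at 0.07. In the alternative settings, *Coq3* and *Coq6* were called lower with log2(signal + 10), with the nontargeting median and without centring, *Coq5* without centring, and *Dhodh* was not called in 1 fit of all libraries or with the median of the sgRNAs.

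Under anti-PD-1, 3 of the 123 genes of these lists were called lower than under IgG over the 5 organs, beside 0.481% of all genes. They were *Mdh2*, malate dehydrogenase (-1.43, SE 0.36), *Cox6c* (-1.51, SE 0.38) and *Dhodh* (-1.37, SE 0.33). The difference of *Sdhd* was -2.37, but it was known when the genes were chosen and is not counted as a test beside these calls. Of the 3 calls, 0 were present in every alternative setting, and with the nontargeting median none of the 123 genes was called lower.

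Across libraries, the subunits did not move together as 1 block. Over the 26 libraries outside the lymph nodes, after subtraction of the median of all genes in each library, *Sdha* and *Sdhb* had a Pearson correlation of 0.64, and *Sdhb* was the gene closest to *Sdha* of 2077 others. The other 5 pairs of subunits had correlations from -0.16 (*Sdhb* with *Sdhd*) to 0.17 (*Sdha* with *Sdhc*). These points share organs, treatments and possibly mice, and are given as a description only.

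The closest other genes by this measure were *Hmox1* (0.62) and *Tyms* (0.61) for *Sdha*, and *Mogat2* (0.80), *Ugt1a2* (0.68) and *Nt5c1a* (0.65) for *Sdhb*, with *Sdha* in place 4. For *Sdhc* they were *Rps7* (0.71), *Mthfsl* (0.66) and *Nampt* (0.65), and for *Sdhd* *Mdh2* (0.74), LOC102641231 (0.74) and *Uqcrc2* (0.73). Their mean changes against T0 ranged from -6.19 (*Rps7*) to 0.63 (*Mogat2*), so that a similar pattern over libraries did not mean a similar level.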

How the data were processed

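The deposited values are a signal per sgRNA and library. The authors obtained read counts of each sgRNA from MAGeCK-VISPR 0.5.3 and normalized them to 250 nontargeting sgRNAs. They then applied ComBat, which they describe as a correction of batch effects between organs. Fractional values remain after these steps, which exclude a test for counts, and the depth per library is unknown. Such a correction can alter differences between organs, and whether it did so here was not tested. What was entered as a batch is not given in the sources used here. For the SDH sgRNAs, the shared lowest value followed the replicate number and was the same across organs.

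Signals were taken as log2(value + 1) with no filter, centred on the mean of the nontargeting sgRNAs of the library and averaged over the 5 sgRNAs of a gene. Limma 3.58.1 in R 4.3.3 was fitted with 1 mean per group (lmFit, eBayes) to T0 with the 5 organs outside the lymph nodes, and separately to T0 with the lymph nodes. Calls used p-values adjusted by Benjamini-Hochberg across the 2078 genes, with a threshold of 0.05. Liver anti-PD-1, with 1 library, was assumed to vary like the other groups. The fits were tested on simulated data. Tables and figures were made with Python 3.11.15, pandas 2.3.3, numpy 2.4.6 and matplotlib 3.10.9.

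The genes and the function lists were chosen with earlier results of these data known. Named from each list were up to 3 genes with the largest mean decrease and up to 2 with the largest increase outside the lymph nodes, the succinyl-CoA ligase genes and *Fh1*, and for each SDH gene the 3 genes closest to it over 26 libraries. *Idh3a* was added after its value was seen. One result is not reported here. The sample titles call the libraries of a group biological replicates. Nothing in the sources used here says that they came from separate mice, so the errors measure the spread between these libraries. Alternatives were another pseudocount, a filter on low values, other centrings, the median of the sgRNAs, lowest values set to 0, other sets of libraries in the fit, the replicate number as a block, and each library left out.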

Additional observations from a re-analysis of the deposited data

How the results depend on the processing

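No change against T0 and no treatment difference that was called turned its direction under any alternative. With log2(value + 10), the means outside the lymph nodes were -3.26 (*Sdha*), -2.60 (*Sdhb*), -2.88 (*Sdhc*) and -2.24 (*Sdhd*), the *Sdhd* treatment difference -1.37, and the lymph node mean of *Sdha* -1.63. Without centring, *Sdhc* was -4.85 and *Sdhd* -4.20 outside the lymph nodes, and the lymph node means were -7.87 (*Sdha*), -6.83 (*Sdhb*), -5.88 (*Sdhc*) and -6.72 (*Sdhd*). Lymph node means of *Sdha*, *Sdhb*, *Sdhc* and *Sdhd* were -0.56, 0.48, 1.42 and 0.58 with the nontargeting median, and -0.50, 0.55, 1.49 and 0.65 with the median of all sgRNAs; that of *Sdhc* was -2.31 with the median of its sgRNAs. The lymph node means of all 4 genes were called lower without centring, and that of *Sdha* in 1 fit of all libraries (-2.54, SE 0.66), but in no other alternative setting with all libraries. The organ F-test called 9 genes, and 300 without centring (3 of them SDH genes), 77 with the nontargeting median, 68 with the median of all sgRNAs, 15 with the median of the sgRNAs of a gene and 1 in a single fit of all libraries. Of the list genes, 62 were called lower over all groups and 55 in anti-PD-1 libraries of the primary tumour, but 34 and 21 with the median of the sgRNAs. The 3 list genes called lower under anti-PD-1 became 5 with log2(value + 10) or with the lowest 10% of sgRNAs left out, and 0 with either median centring, no centring, the median of the sgRNAs, 1 fit of all libraries or only the groups compared. The cause of these shifts was not tested.

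With each library left out in turn, the means outside the lymph nodes ran from -4.92 to -4.61 (*Sdha*), -3.93 to -3.64 (*Sdhb*), -3.93 to -3.76 (*Sdhc*) and -3.38 to -2.94 (*Sdhd*), the *Sdhd* treatment difference from -2.52 to -2.17, the genes of the F-test from 7 (without primary tumour IgG replicate 3) to 17 (without lung anti-PD-1 replicate 1), and the list genes lower under anti-PD-1 from 0 (without primary tumour anti-PD-1 replicate 3) to 5 (without lung IgG replicate 2).

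Groups share replicate numbers, which the sample titles mark as biological replicates. The paper reports independent sequencing runs, but no source used here ties a number to a run. The shared lowest values are common to libraries of 1 number. Outside the lymph nodes, the deviations of libraries from their group means had a median correlation of 0.03 for the same number, over 0.1 in 37 of 93 pairs, and of -0.01 for different numbers, over 0.1 in 4 of 184 pairs. In the lymph nodes, 0 of 18 pairs of the same number were over 0.1. For T0 with an organ, the median correlation was -0.16 for the same number, over 0.1 in 2 of 37 pairs. It was 0.07 for different numbers, over 0.1 in 29 of 74 pairs. Among the organs outside the lymph nodes, some libraries of a number thus deviated together, but not every pair. The block was kept as an alternative. With the replicate number as a block, the means were -4.85 (*Sdha*), -3.89 (*Sdhb*), -3.91 (*Sdhc*) and -3.22 (*Sdhd*), the *Sdhd* treatment difference -2.44, and the F-test called 11 genes. *Sdhb* in the liver under anti-PD-1 (-2.94) was then called lower, and no other call of the 4 genes changed.

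Liver anti-PD-1 rests on 1 library, all changes share 3 T0 libraries, and values at the shared lowest value have no order, so large decreases are compressed.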
